A study of Caenorhabditis elegans with 2 samples.

Results

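The translation initiation and elongation factor genes of C. elegans described here are the 40 nuclear protein-coding genes, of 19973 in all, whose symbol begins with eif-, ife-, iff-, ifg-, inf- or eef- (no gene in the annotation began with iftb-). They were taken by symbol alone, but the set was chosen with earlier results of these data known. What was measured at these genes is where LIN-38, which belongs to the class A synthetic multivulva proteins and is found in nuclei, sat on chromatin. The chromatin immunoprecipitation and sequencing (ChIP-seq) used 2 biological replicates of whole L4 larvae, the last larval stage, aged 48 hours and synchronised by starving L1 larvae hatched after bleaching. Both came from 1 strain, RW12236, in which CRISPR placed TY1, EGFP and 3xFLAG tags in the endogenous lin-38 gene on chromosome II. Anti-GFP antibody pulled down the tagged protein with its DNA. There was 1 group, so there is no treatment, no second genotype and no stage to compare, and no library of untagged animals was analysed here. Whole animals mix all tissues, so strong binding in few cells and weak binding in many cannot be told apart.

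A gene has a promoter summit when the highest point of a peak in the authors' conservative list lies in a window that starts 500 bp upstream of an annotated 5′ end of a coding transcript and stops 200 bp downstream. That list was made from both samples, keeps peaks past a threshold on the irreproducible discovery rate (IDR), and holds 5405 nuclear peaks, of which 2531 have a summit in a promoter window. Each peak has a signal value, the authors' own score of its height. Its scaling is not stated and the lists hold no read counts, so the depth is unknown, and values cannot be read as amounts of bound protein. Values per replicate come from each replicate's own ranked list. At these genes' summits the 2 replicate values added up to a median of 0.999 times the value of the series list. No test is given: genes and peaks are not replicates, and 1 group of 2 samples has nothing to be tested against.

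Translation begins when initiation factors bring the initiator tRNA and the small ribosomal subunit to the capped mRNA and find the start codon. eIF2, recharged by its exchange factor eIF2B, carries the initiator tRNA, eIF4F binds the cap and unwinds the leader, and eIF3 holds the small subunit and the other factors together. Elongation factors then run the cycle, with eEF1A bringing in each aminoacyl-tRNA, eEF1B recharging eEF1A, and eEF2 moving the ribosome along. eIF5A carries the name of an initiation factor but is known to act at stalled peptide bonds during elongation, so its 2 genes, iff-1 and iff-2, were kept as a class of their own.

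LIN-38 summits were present at the promoters of 27 of the 40 genes (67.5%, Wilson 95% interval 52.0 to 79.9, counting error only), while 14.6% of all protein-coding genes had one. Every elongation factor gene had a summit, 6 of 6 (100%, interval 61.0 to 100). So did both eIF5A genes. Of the 32 initiation factor genes 19 had one (59.4%, interval 42.3 to 74.5). The elongation share was thus 40.6 percentage points above the initiation share, on 6 genes, and the intervals of the shares overlap. The Newcombe 95% interval of the difference, -1.23 to 57.7 percentage points, includes no difference. Like the Wilson intervals it covers counting error only. Genes are not replicates, so it is no test of the classes. Within initiation the counts were 7 of 11 for eIF3, 6 of 10 for eIF2, eIF2B and their relatives, 3 of 7 for eIF4F and 3 of 4 for the remainder.

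**Figure D1:**
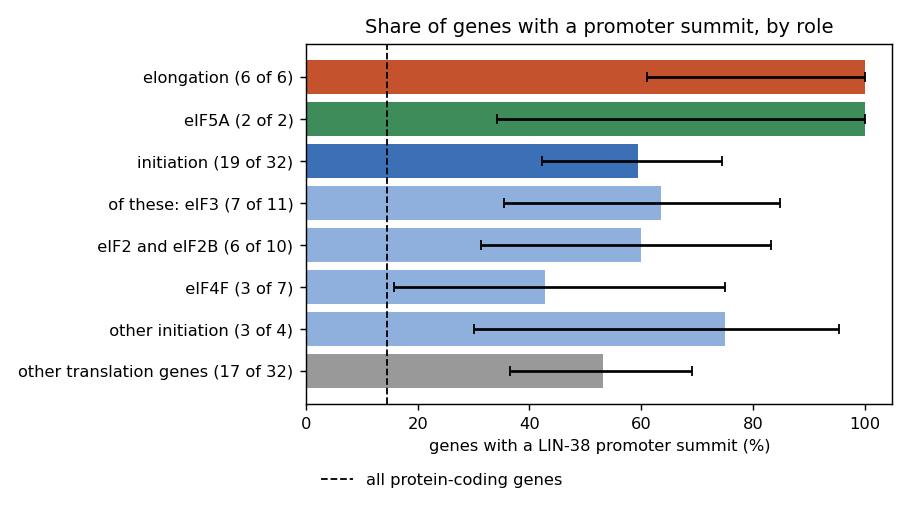
Percent of genes with a LIN-38 promoter summit in each class and role (bars), with Wilson 95% intervals (lines) and the 14.6% of all protein-coding genes as a dashed line. Elongation and eIF5A genes reach 100%, initiation factor genes 59.4%, and eIF4F genes have the lowest share, 42.9%.

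The 6 elongation factor genes ran from 205.3 at eef-1B.2 to 5067 at eef-1G in the series list, and at each the replicates were within 0.10 of each other on the log2 scale. The highest was eef-1G, the gamma subunit of eEF1B, where replicate 1 gave 2604 and replicate 2 gave 2473. Its peak in the series list (5067) ran from 10965487 to 10965880 on chromosome V (ce11), with the summit at 10965678, between genes and 41 bp upstream of a 5′ end. It ranked 49 of the 2531 promoter summits. At eef-1A.1, one of a pair of genes for eEF1A, the values were 506 and 541 (1054 in the series list), and at the other gene of the pair, eef-1A.2, they were 190.3 and 202 (392). The eEF1B exchange factor genes eef-1B.1 and eef-1B.2 had 359 and 368 (733), and 101.7 and 96.9 (205.3). In each of these pairs the higher paralog had over 2 times the value of the lower in both replicates. Both genes of a pair were measured in the same 2 samples, so this describes 2 places and was not tested. The higher summit of each pair also lay in a neighbouring gene's promoter window, as given below, so its value cannot be credited to the paralog alone. At eef-2, the translocation factor gene, the values were 498 and 509 (998).

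Their positions differed as well. The summits of eef-1G, eef-2 (4 bp upstream) and eef-1B.1 (0 bp, on the first annotated base) lay within 41 bp of the 5′ end, that of eef-1B.2 lay 147 bp upstream, and those of eef-1A.2 and eef-1A.1 lay 342 and 402 bp upstream. The peak of eef-1A.1 ran from 6971938 to 6972249 on chromosome III, with its summit at 6972114. That of eef-1A.2 ran from 7823185 to 7823413 on chromosome X, with its summit at 7823312. The eef-1B.1 peak ran from 7973265 to 7973534 on chromosome III and the eef-2 peak from 9163376 to 9163670 on chromosome I, with its summit at 9163527. Of the 6 summits 4 also lay in the promoter window of a gene on the opposite strand. The partner was ctf-4, a replisome adaptor gene, at eef-1G, and clsp-1, a claspin gene, at eef-2. It was rfc-4, a replication factor C subunit gene, at eef-1A.1, and aco-2, the mitochondrial aconitase gene, at eef-1B.1. The summit was nearer to the elongation factor's own 5′ end in all of these but eef-1A.1, where rfc-4 was 139 bp away. A peak in a shared window cannot be credited to one of the genes.

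The eIF5A genes held the tallest summit of the set and one of ordinary height. iff-2 had 3762 in replicate 1 and 3495 in replicate 2. Its peak in the series list (7241) ran from 8561231 to 8561680 on chromosome II, with the summit at 8561439, 72 bp upstream of a 5′ end and between genes, and ranked 19 of the 2531. At iff-1, whose product is known to be needed for germ cell proliferation, the values were 150.2 and 137.4, far below those of iff-2 in both replicates. The iff-1 peak (276.8) ran from 9746808 to 9746938 on chromosome III, with the summit at 9746851. This lies in an intron of the longest iff-1 transcript, 247 bp upstream of an internal 5′ end, and iff-1 has no promoter summit when its outermost 5′ end alone is used. The summit of neither gene was shared with another gene.

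The sequences at these summits are shown because stretches of them recur between genes, and the last pair is of initiation factor genes. Each is the 101 bases centred on the summit, read from the WBcel235 genome on the strand of the gene, and capitals mark the longest run shared by the 2 genes of a pair, found by comparing their windows on both strands.
iff-1 (chrIII:9746801-9746901, minus strand): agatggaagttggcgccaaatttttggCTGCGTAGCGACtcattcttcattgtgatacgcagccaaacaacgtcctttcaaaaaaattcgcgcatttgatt
iff-2 (chrII:8561389-8561489, minus strand): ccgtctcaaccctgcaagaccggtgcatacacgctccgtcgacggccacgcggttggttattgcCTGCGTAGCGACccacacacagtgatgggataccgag
eef-1G (chrV:10965628-10965728, plus strand): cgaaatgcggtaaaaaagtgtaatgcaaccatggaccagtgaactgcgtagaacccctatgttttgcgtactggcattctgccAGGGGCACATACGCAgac
eef-1A.2 (chrX:7823262-7823362, plus strand): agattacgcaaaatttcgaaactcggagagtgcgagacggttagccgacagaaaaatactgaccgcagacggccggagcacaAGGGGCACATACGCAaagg
eef-1B.1 (chrIII:7973336-7973436, minus strand): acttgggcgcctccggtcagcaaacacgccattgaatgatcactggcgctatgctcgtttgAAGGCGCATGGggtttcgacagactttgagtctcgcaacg
eef-1B.2 (chrIV:15037134-15037234, plus strand): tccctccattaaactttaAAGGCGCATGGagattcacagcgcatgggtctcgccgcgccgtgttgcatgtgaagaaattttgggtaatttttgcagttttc
eif-3.G (chrII:8442394-8442494, plus strand): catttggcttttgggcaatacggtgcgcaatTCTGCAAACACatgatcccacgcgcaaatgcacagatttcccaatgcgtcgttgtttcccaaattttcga
ife-2 (chrX:382848-382948, minus strand): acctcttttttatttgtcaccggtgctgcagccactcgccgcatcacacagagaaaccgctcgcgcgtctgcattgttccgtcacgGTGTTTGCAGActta

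The eIF5A pair shared a run of 12 bases in the same orientation to the gene. It occurs 7 times in the nuclear genome, and 4 of the 5 copies outside this pair also lay wholly in a conservative peak. eef-1G and eef-1A.2 shared 15 bases, also in the same orientation. Of the 3 other copies in the genome 2 lay in a peak. The run of 11 bases shared by eef-1B.1 and eef-1B.2 is more common, with 119 other copies, of which 22 lay in a peak. It is also in the window of the initiation factor gene eif-2gamma, which shared longer runs with eef-1B.2 (14 bases) and eef-1B.1 (12 bases) than these shared with each other. eif-3.G and ife-2 shared 11 bases in opposite orientations to their genes, and 13 of the 109 other copies lay in a peak. Conservative peaks cover 1.72% of the nuclear genome. A further run of 16 bases was shared by the windows of eef-1A.1 and eef-2, and 2 other promoter windows held it. Initiation factor genes also shared longer runs than the pair shown. eif-3.E and eif-6 shared 15 bases, with 1 other promoter window holding the run, and eif-3.C and eif-3.D shared 12, with 9 others. Among all 351 pairs of the 27 summit windows, 30 shared a run of at least 10 bases. No such count is given for other promoter windows, so whether 30 is many is not known. Some short runs are common: that of eif-2Balpha and eif-2Bbeta, of 10 bases, was in 99 other promoter windows. The pairs shown were picked after the sequences were read, so the counts describe them and test nothing.

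Both eIF5A windows, eef-1G and eef-1A.2 contain TACGCA on one strand or the other, 3 times at eef-1G, and part of these matches lies in the shared runs. This pattern was singled out after the sequences were read. It was present within 50 bp of the summit at 6 of the 27 (22.2%), the others being eif-2Balpha and eif-3.I, and at 8.38% of all 2531 promoter summits. Because the pattern was picked from windows that are among these 6, the choice itself raises the share of the set. The contrast with all promoter summits therefore tests nothing. Of 10 patterns taken from a list, TTTGAA was at 9 of the 27 summits (33.3%, against 22.8% of promoter summits), TTTTTT at 12 (44.4%, against 29.5%) and CGCG at 16 (59.3%, against 47.5%). By class, CGCG was at 13 of 19 initiation summits, 1 of 6 elongation summits and both eIF5A summits, a difference that was not tested. The GATA core AGATAA and the repeat GAGAGA were each at 2 of the 27 (7.41%), against 3.48% and 15.1% of promoter summits. The pattern GCGGGA was at 1 (3.70%, against 7.07%), as was the TATA pattern TATAAA (against 5.97%) and also the splice-acceptor pattern TTTCAG (against 10.4%). The E-box CACGTG was at none (against 3.28%), nor was TTCCCG found at any (against 6.84%). Both strands were searched for each pattern. In windows of 201 bp the order turned for TTTTTT (59.3% of the set, against 64.95% of promoter summits), for AGATAA (7.41%, against 8.85%) and for TATAAA (25.9%, against 16.9%). Median GC content of the 101 bases was 49.0% at elongation summits, 52.0% at eIF5A summits and 43.6% at initiation summits, with 44.6% at all promoter summits. The eIF5A value is the middle of 2 unlike windows, iff-1 with 42.6% and iff-2 with 61.4%. A match is a stretch of letters, not a known site.

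Initiation factor summits were lower at the top of their range. Their median signal value was 360, against 866 for elongation and 336 for all protein-coding genes with a promoter summit (283.5 over promoter summits, each counted once), and 7 of 19 were in the top 25% of promoter summits, against 4 of 6 for elongation. All 4 of these elongation summits also lay in another gene's promoter window, so their values cannot be credited to the elongation genes alone. The elongation summits that were not shared, at eef-1A.2 and eef-1B.2, had 392 and 205.3. Initiation summits were shared at 7 of 19 genes. The contrast between the classes was not tested. The highest initiation summit was that of eif-3.C (1931), below both eef-1G and iff-2.

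**Figure D2:**
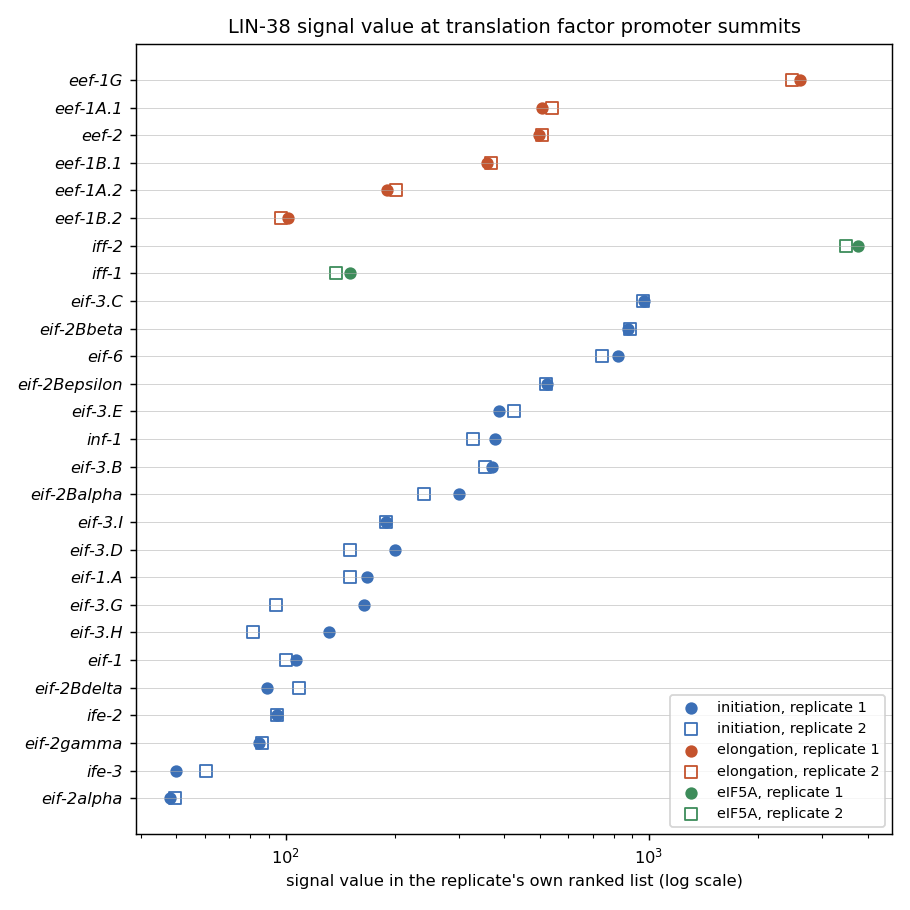
Signal value (log scale) of each translation factor gene's promoter summit in replicate 1 (filled circles) and replicate 2 (open squares), grouped by class and ordered by height. iff-2 and eef-1G stand above all others in both replicates, and the replicates lie apart most at eif-3.G and eif-3.H.

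eIF3, the many-subunit scaffold of the small subunit, had summits at the genes of subunits B, C, D, E, G, H and I. The core subunit gene eif-3.C had 968 in replicate 1 and 960 in replicate 2. Its peak was on chromosome I from 9979731 to 9980070, with a summit 234 bp upstream that no other gene shared. eif-3.E followed with 387 and 424 (820 in the series list), from 10642337 to 10642609 on chromosome I with its summit 192 bp upstream, and eif-3.B, which encodes a core subunit, with 369 and 353 (697). At eif-3.I and eif-3.D the values were 189.1 and 188.6 (363), and 199.3 and 150.6 (360). The 2 lowest, eif-3.G with 164.2 and 94.0 (263) and eif-3.H with 131.3 and 81.5 (228.5), were higher in replicate 1 by 0.80 and 0.69 on the log2 scale. These were the widest replicate gaps of the set. Summits of eIF3 genes lay far out, with a median of 242 bp upstream, and all but eif-3.E were over 200 bp from the 5′ end. Those of eif-3.D, eif-3.H and eif-3.I also lay in the window of a gene on the opposite strand, R08D7.4, C41D11.3 and the mitochondrial transporter gene abtm-1. The genes of subunits F, J, K and L had none.

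Of the eIF2B exchange factor genes 4 of 5 had a summit, at subunits alpha, beta, delta and epsilon. eif-2Bbeta was the second highest of the initiation genes, with 878 in replicate 1 and 887 in replicate 2 (1761 in the series list), on chromosome I from 11893692 to 11894038, 147 bp upstream. Its summit was nearer to Y47H9C.8, on the opposite strand, at 57 bp. eif-2Bepsilon, the catalytic subunit gene, had 525 and 520 (1059) on chromosome II from 8661571 to 8661869, 143 bp upstream, and shared the summit with piga-1, 14 bp from it. eif-2Balpha had 299.5 and 240.6 (553), and eif-2Bdelta 88.6 and 108.7 (189.4). Of the subunits of eIF2 itself, eif-2gamma had 84.3 and 86.0 (162.1), and eif-2alpha, the site of the stress phosphorylation that slows initiation, had 48.1 and 49.5, the lowest summit of the set. All 6 summits in this role lay within 200 bp upstream. eif-2beta had none in the list, but came close: its best candidate had a scaled IDR score of 798 where the list's lowest was 830, and a higher signal value (107.3) than eif-2alpha (82.8, with a score of 834). eif-2A and eif-2D, which deliver initiator tRNA by other routes, had none.

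eIF4F was the role with the fewest, 3 of 7. inf-1, the eIF4A helicase gene, had 376 in replicate 1 and 327 in replicate 2 (727), with a summit 379 bp upstream on chromosome III at 6929755. Of the 5 genes for cap-binding eIF4E proteins, ife-2 had 94.4 in both replicates (186.2) and ife-3 had 49.8 and 60.5 (98.7), the latter 488 bp upstream and just inside the window. ife-1, ife-4, ife-5 and ifg-1, the eIF4G scaffold gene, had none. Among the other initiation genes, eif-6, which keeps ribosomal subunits apart and enters the class by its symbol, had 822 and 741 (1547) in a peak from 12968454 to 12968779 on chromosome I, with a summit 334 bp upstream. It shared this summit with the proteasome subunit gene pbs-2, at 332 bp. The scanning factor genes eif-1.A and eif-1 had 167.6 and 150.4 (322), and 106.9 and 100.2 (212.9). The eif-1 summit lay 402 bp from eif-1 and 16 bp from vps-24, an ESCRT-III gene. eif-4A3, which encodes a helicase of the exon junction complex and no initiation helicase, had none.

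**Figure D3:**
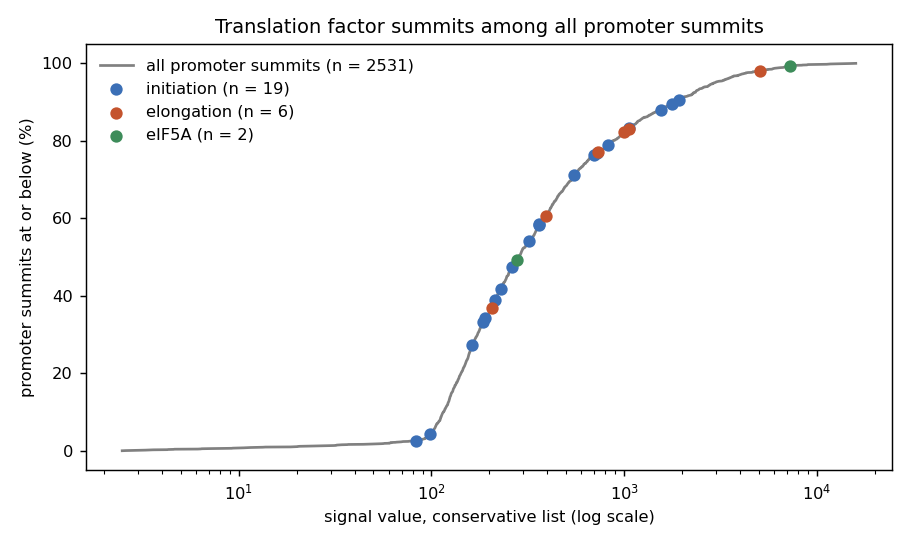
Percent of the 2531 promoter summits at or below each signal value (grey line, log scale), with the summits of initiation (blue), elongation (red) and eIF5A genes (green) placed on it. The 27 points run from 82.8 at eif-2alpha to 7241 at iff-2, and 12 of them are in the top 25%.

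Over all 27 summits the median signal value was 392, and 12 of them (44.4%) were in the top 25% of promoter summits, as were 29.1% of all protein-coding genes with a promoter summit. Peaks of both replicates' own thresholded lists overlapped 25 of the 27 (92.6%), as against 75.3% of all promoter summits and 79.0% of all protein-coding genes with one. The exceptions, ife-3 and eif-2alpha, overlapped neither list. The list that defined the summits was made from these same samples, so the overlap is no independent check. On the log2 scale replicate 1 exceeded replicate 2 by a median of 0.01 (SD 0.24, n = 27 summits), against 0.07 (SD 0.36, n = 2505 promoter summits valued in both). In 21 of the 27 the replicates were within 0.25.

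The 13 genes without a summit are all in the initiation class. In the ranked list behind the conservative one, 9 of them had a candidate in the window. Besides eif-2beta these were ife-5 (75.9), ife-1 (72.5), ifg-1 (69.5), eif-2D (61.6), eif-3.F (60.0), eif-4A3 (33.2), eif-3.J (24.9) and eif-3.L (22.0), with scores of 42 to 149. eif-2A, eif-2Bgamma, eif-3.K and ife-4 had no candidate there, though replicate 2 alone had one at ife-4 (30.1). A listed summit lay outside the window but within 1000 bp at 4 of the 13. It was 889 bp downstream at ife-5 (206.2), 596 bp upstream at ifg-1 (126.1), 755 bp upstream at eif-2Bgamma (397) and 945 bp upstream at eif-3.J (685).

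**Figure D4:**
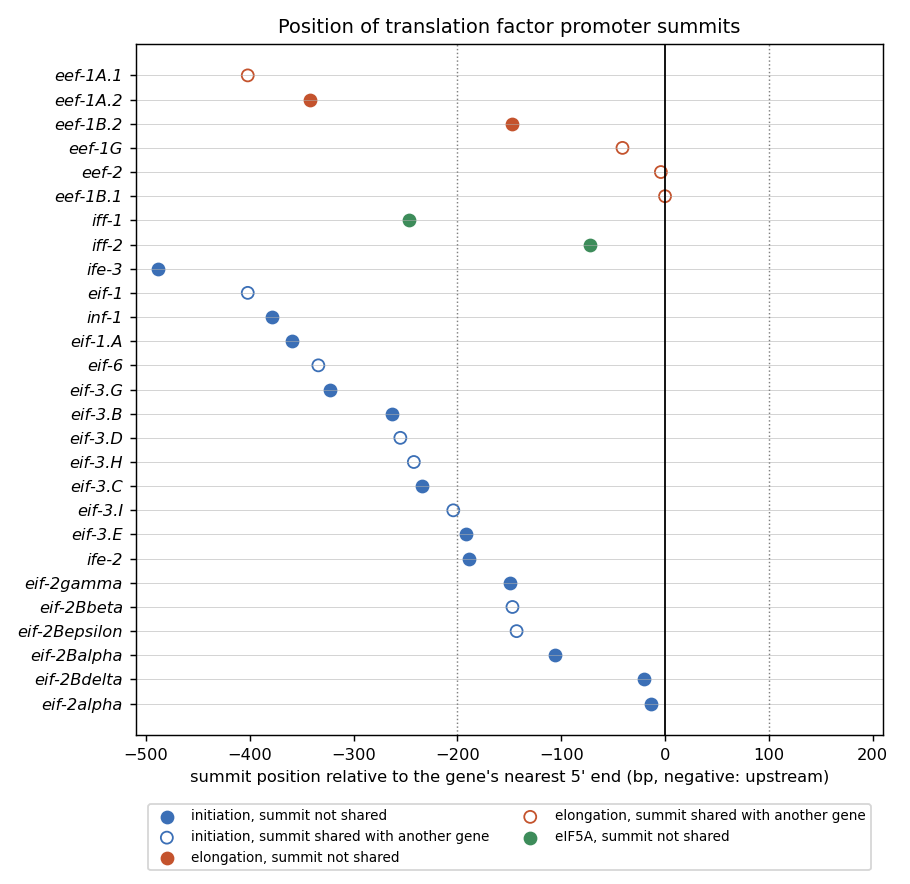
Position of each summit relative to the gene's nearest 5′ end in bp, with negative values upstream and dotted lines at 200 bp upstream and 100 bp downstream. Open circles are summits that also lie in the promoter window of another gene. Elongation summits lie from 402 bp upstream to 0 bp, and 11 of the 19 initiation summits lie beyond 200 bp.

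Summits of these genes lay over 200 bp from the 5′ end about as often as nearer to it. The median was 204 bp upstream, 234 for initiation and 94 for elongation, and 166 for all protein-coding genes with a promoter summit. Of the 27, 14 (51.9%) lay over 200 bp upstream, as against 42.0% of all such genes. These were 11 initiation summits, 6 of them of eIF3 and none of eIF2 and eIF2B, 2 elongation summits and 1 eIF5A summit. All but 2 of the 27 were between genes, the others being iff-1 in its intron and eef-1B.1 on its first base. A summit was shared with another gene at 11 of the 27 (40.7%, against 38.0% of all such genes), always one on the opposite strand, and in 7 of the 11 the partner's 5′ end was nearer. By class these were 4 of 6 elongation and 7 of 19 initiation genes. Where the next gene upstream was on the opposite strand, 17 of 22 of the set had a summit (18.4% of all such protein-coding genes). With a gene on the same strand within 500 bp, the spacing of many worm operons, it was 4 of 8 (18.8%), and with one farther off 6 of 10 (6.65%). Operons are not annotated in the reference used.

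**Figure D5:**
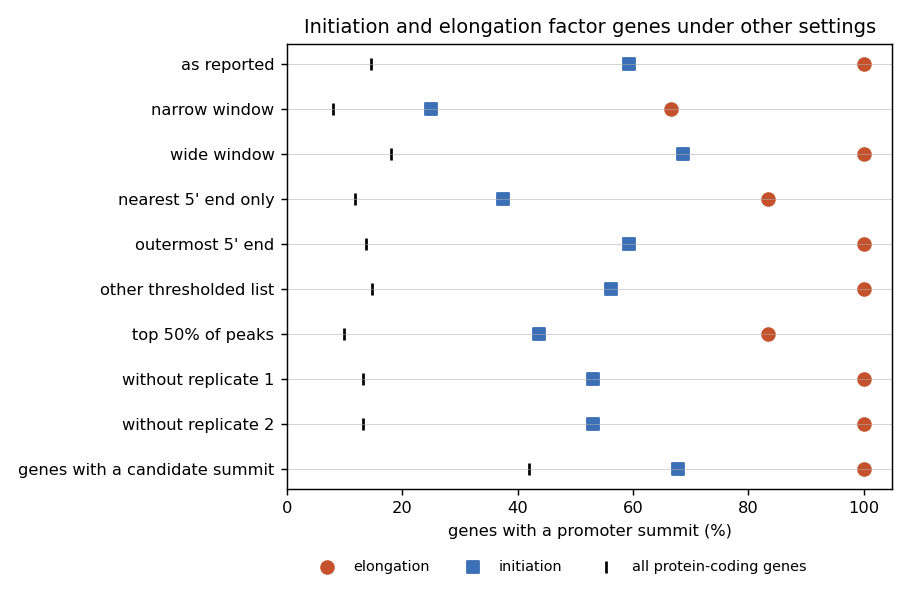
Percent of elongation (circles) and initiation factor genes (squares) and of all protein-coding genes (bars) with a promoter summit under 10 settings of the window, the peak list and the genes counted. The elongation share is above the initiation share, and the initiation share above that of all genes, in each of the 10. The settings reuse the same genes and samples, so they are not independent of each other.

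The window set how many genes had a summit. From 200 bp upstream to 100 bp downstream 13 of the 40 had one (32.5%, against 8.04% of all genes), made up of 4 of 6 elongation genes, 8 of 32 initiation genes (25%) and iff-2. eIF3 kept only eif-3.E. When a summit counted for its closest gene alone, 19 of 40 had one (47.5%, against 11.8%), among them 5 of 6 elongation and 12 of 32 initiation genes. The genes lost in that case were eef-1A.1, eif-1, eif-2Bbeta, eif-2Bepsilon, eif-3.D, eif-3.H, eif-6 and ife-3.

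Other genes of translation and its control, taken from a list, had summits at 17 of 32 (53.1%, again beside 14.6%), and 3 more symbols of the list were not in the annotation. Their median signal value was 354. The 5 highest were drr-2, an eIF4H gene (1338 in replicate 1 and 1217 in replicate 2), daf-15, the worm Raptor (972 and 825), rheb-1, the GTPase that activates TOR (371 and 412), the release factor gene erfa-1 (409 and 384) and tsfm-1, a mitochondrial elongation factor gene (358 and 310). All of these but daf-15 shared the summit with another gene. iffb-1, the eIF5B gene, had 96.6 and 96.7, and the eEF2 kinase gene efk-1 and the TOR kinase gene let-363 had no summit.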

How the data were processed

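Peaks were deposited as 8 lists on ce11, for 2 samples. Per the labels and the deposited list of outputs, each sample has a ranked and a thresholded list from its own alignments, and 4 lists were made from both samples. These lists came with aligner and caller not given in the sources used here. The authors' signal value per peak has no stated scaling. The authors' deposited score is a scaled IDR, and the authors' −log10 IDR comes from the ranked lists. Depth is unknown, so intervals cover the count of genes only.

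Computed here, with Python 3.11.15, pandas 2.3.3, scipy 1.17.1 and Biopython 1.88: summits were joined to 29314 coding 5′ ends of Ensembl release 115 on WBcel235, which is the same assembly, and 26 mitochondrial peaks were left out. The replicate value is that of the overlapping ranked peak with the nearest summit. Assignment was tested on simulated summits. Members, gene lists, patterns and the rule for named genes were chosen with earlier results of these data known. By that rule every member is named, full values go to both eIF5A genes and the 5 highest initiation and elongation genes, and the 5 highest other translation genes are added; iffb-1, efk-1 and let-363, TACGCA and the sequence pairs were chosen after their values were seen. The closing section gives the alternatives.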

Additional observations from a re-analysis of the deposited data

How the results depend on the processing

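The 27 of 40 genes with a summit became 32.5% in the narrow window and 47.5% with nearest assignment, and initiation genes 25% and 37.5%. The other 8 alternatives for the set gave 52.5% to 75%. The share of elongation genes ran from 66.7% to 100%, and its excess over initiation from 31.2 to 46.9 percentage points over 12 alternatives, including iff-1 and iff-2 counted with either class. With either replicate's list alone, 25 of 40 genes had a summit, ife-3 and eif-2alpha being lost. All protein-coding genes had 8.04% in the narrow window, 18.05% in the wide one (1000 bp upstream to 500 bp downstream), 11.8% with nearest assignment and 13.6% with outermost 5′ ends. They had 9.86% with the top 50% of peaks, 41.9% among genes with a candidate summit (75% for the set), 12.1% with shared summits counted once and 13.1% to 13.2% with 1 replicate. These shares move by construction with the window, list and denominator. The median signal value of the set's summits, 392 as reported, was 221 and 299.5 with 1 replicate, in lists whose values are lower. It was 733 in the narrow window and 727 with the top 50% of peaks, and 362 to 472.5 under the other alternatives. Reciprocal overlap of 50% left 22 summits found in both replicates. In windows of 201 bp TACGCA was at 25.9% of the set's summits and 10.7% of promoter summits, but it was picked from these same sequences. In the same windows TATAAA was at 25.9% and 16.9%, and TTTCAG at 22.2% and 28.1%. Against promoter summits the direction turned for 3 of the 11 patterns, as given with them above. No paired analysis was possible because there is 1 group. The unknown depth limits what the absence of a peak can show.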
